A study of Mus musculus with 6 samples.

Results

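Glycolysis and hypoxia-inducible genes were followed across mouse embryonic fibroblasts with and without Zmpste24, the zinc metalloprotease that trims prelamin A on its way to mature lamin A. The group was given by name as 40 genes, made up of glucose and lactate transporters, glycolytic enzymes and targets of the hypoxia-inducible factors (HIF). A gene entered when a probe set of the array carried its symbol and no other, and was represented by its brightest such probe set over 6 arrays. Of the 40 genes, 37 were found, out of 18194 named genes in all. Ero1l was matched through its gene identifier, being listed as Ero1a. Gpi1 and Eno1 have no listed probe set here, and the probe sets of Bnip3l carry several symbols, so these 3 were not analysed here. Gapdh carried its own symbol alone only on the array's control probe sets and is given by its signal, without a test. The other 36 all passed the filter on dim probe sets.

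Cells of 2 genotypes on the C57BL/6 background were compared, Zmpste24-/- and wild type (WT, Zmpste24+/+), with 3 cultures each. Fibroblasts had been prepared from E13.5 embryos, carried to passage 3 in DMEM with 10% fetal calf serum and lysed for total RNA, which was hybridised 1 culture to an array. The labels describe neither the mutant allele nor the oxygen level of the incubator, nor do they say whether the cultures of 1 genotype came from separate embryos. The p-values therefore rest on the spread between these cultures, whatever its source. In fits that include the culture number, it is the spread left after differences between numbers and between genotypes are removed.

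Glycolysis splits glucose into pyruvate in the cytosol, and lactate dehydrogenase turns pyruvate into lactate, which leaves the cell through monocarboxylate transporters. HIF is a pair of a regulated alpha subunit, encoded by Hif1a or Epas1, and a constant partner. With oxygen present, the prolyl hydroxylases encoded by the Egln genes mark the alpha subunit for destruction. When oxygen is scarce HIF raises transcription of glucose transporters, most glycolytic enzymes and genes of angiogenesis, mitophagy and matrix hydroxylation. The alpha subunits are controlled mainly at the protein level, so their transcripts do not report HIF activity. Cultured fibroblasts take up much glucose even in air.

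The deposited signal is a linear intensity, and the median signal of an array lay between 56.1 and 70.3. Zmpste24 had a signal of 365, 182 and 226 in Zmpste24-/- cultures 1, 2 and 3, against 3849.9, 2249 and 2043 in WT cultures 1, 2 and 3. It was low in every culture labelled Zmpste24-/-. Xist was at 6669, 4766 and 6660.1 in Zmpste24-/- and 5324, 69.3 and 43.7 in WT, and the Y-linked Eif2s3y at 14.6, 10.4 and 15.7 in Zmpste24-/- and at 531 and 1341 in WT cultures 2 and 3. By these transcripts WT cultures 2 and 3 were male and the other 4 female, so within numbers 2 and 3 genotype and sex cannot be told apart, and number 1 is the pair of like sex. The 2 cultures numbered 1 stood apart in both genotypes: their arrays correlated with each other at r = 0.985 and with the other 4 at 0.927 to 0.934, whereas those 4 correlated among themselves at 0.980 to 0.987. Fibroblast transcripts were bright in every culture, with Col1a2 at 19556 or more. The 14 macrophage markers summed to 16268, 1784 and 1798 in Zmpste24-/- cultures 1, 2 and 3, against 8933, 2112 and 2804 in WT, and the 14 measured mitosis genes to 8871, 43033 and 38384 in Zmpste24-/- cultures 1, 2 and 3, against 8904, 38081 and 39659 in WT. The 3 measured erythroid markers summed to at most 33.6. Epithelial markers summed to 719, 3526 and 3048 in Zmpste24-/- cultures 1, 2 and 3, against 630.0, 3358 and 3211 in WT, mostly from Krt19 and Krt18, and skeletal muscle markers to 727, 3117 and 2292 in Zmpste24-/- cultures 1, 2 and 3, against 1042, 4469 and 3610.0 in WT, mostly from Acta1. The 8 neural markers summed to 2349, 2329 and 1836 in Zmpste24-/- cultures 1, 2 and 3, against 932, 2052 and 1792 in WT.

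Promoters are printed for the 6 members with the smallest unadjusted p for genotype in the fit with the replicate number as a block, to show where the core of a HIF response element lies in the genes that come first in the comparison below. They are the 250 bases before the first start that RefSeq lists (GRCm38.p6), written 5′ to 3′ on the gene's strand, with ACGTG and GCGTG in capitals on either strand (CACGT and CACGC where the core lies on the other strand).
Slc2a1 (chr4:119108495-119108744, + strand): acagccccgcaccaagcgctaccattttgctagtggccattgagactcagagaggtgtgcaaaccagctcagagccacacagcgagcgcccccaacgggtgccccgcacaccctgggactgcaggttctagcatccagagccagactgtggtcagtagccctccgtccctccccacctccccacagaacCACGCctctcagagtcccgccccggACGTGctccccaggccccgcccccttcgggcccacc
Bnip3 (chr7:138909507-138909756, - strand): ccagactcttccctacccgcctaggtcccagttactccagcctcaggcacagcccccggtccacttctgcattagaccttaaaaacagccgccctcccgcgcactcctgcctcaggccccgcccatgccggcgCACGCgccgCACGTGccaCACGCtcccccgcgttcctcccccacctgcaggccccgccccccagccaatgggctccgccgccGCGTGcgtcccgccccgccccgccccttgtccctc
Pgam1 (chr19:41911621-41911870, + strand): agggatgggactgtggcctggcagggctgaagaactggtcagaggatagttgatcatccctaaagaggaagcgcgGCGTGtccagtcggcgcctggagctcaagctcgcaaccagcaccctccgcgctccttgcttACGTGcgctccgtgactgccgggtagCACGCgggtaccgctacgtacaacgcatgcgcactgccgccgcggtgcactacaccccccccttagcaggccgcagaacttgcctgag
Pfkl (chr10:78009808-78010057, - strand): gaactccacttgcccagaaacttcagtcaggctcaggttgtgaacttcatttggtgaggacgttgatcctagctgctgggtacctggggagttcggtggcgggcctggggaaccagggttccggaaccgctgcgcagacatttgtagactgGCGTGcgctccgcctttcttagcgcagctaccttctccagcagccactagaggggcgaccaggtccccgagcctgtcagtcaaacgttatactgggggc
Aldoa (chr7:126800448-126800697, - strand): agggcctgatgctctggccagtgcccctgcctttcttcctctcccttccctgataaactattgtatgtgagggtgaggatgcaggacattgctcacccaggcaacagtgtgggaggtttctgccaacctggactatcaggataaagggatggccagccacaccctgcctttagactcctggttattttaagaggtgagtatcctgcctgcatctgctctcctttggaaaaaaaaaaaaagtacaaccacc
Ldha (chr7:46845554-46845803, + strand): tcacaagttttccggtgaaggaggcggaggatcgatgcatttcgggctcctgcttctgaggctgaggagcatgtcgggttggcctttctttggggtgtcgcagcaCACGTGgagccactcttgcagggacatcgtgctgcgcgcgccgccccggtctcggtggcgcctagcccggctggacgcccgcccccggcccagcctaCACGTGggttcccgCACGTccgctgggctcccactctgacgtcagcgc
Bnip3 and Ldha each held 5 matches, Pgam1 3, Slc2a1 2 and Pfkl 1, and none was found in this window of Aldoa. RefSeq lists 3 promoters for Aldoa and 2 for Ldha, and only the first of each is given here. A CACGTG counts as 2 matches, 1 on each strand, and is also the E-box bound by MYC, MXI1 and BHLHE40. Of the 34 found members with a promoter in the table, 27 held at least 1 match (79.4%). The share was 55.4% among the 10519 genes with a tested probe set and 38.6% among all 27025 genes of the table. A match is a string of letters and not a measured binding site.

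Between the genotypes the members differed by small amounts, mostly downward. The glucose transporter Slc2a1, the lactate exporter Slc16a3 and the enzymes Pfkl and Pkm were lower in all 3 Zmpste24-/- cultures than in any WT culture, and the HIF alpha subunit gene Epas1 was higher in all 3. No member passed the test across all probe sets. In limma without a block, 0 of 36 members were called at a Benjamini-Hochberg adjusted p under 0.05 and each had an adjusted p of 0.9999, where 0 of 27022 probe sets were called (0%). With the replicate number as a block 0 of 36 members were called as well, their adjusted p running from 0.216 to 0.987, beside 5 of all probe sets (0.0185%). Zmpste24 itself, at a log2 difference of -3.31, had an adjusted p of 0.987 without the block and 4.02e-05 with it. The fit without a block thus missed the known difference, and its 0 calls say little about the members. Differences are given as log2(signal + 16), Zmpste24-/- minus WT, a scale that shrinks those of dim genes.

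In direction, 30 of the 36 members were lower in Zmpste24-/-, a share of 83.3% against 51.1% of all probe sets tested, with a median difference of -0.13 against -0.0048 over all probe sets. Within culture numbers 1, 2 and 3 the members' median was -0.074, -0.17 and -0.12, against 0.0075, -0.029 and 0.015 over all probe sets. In these numbers 25, 30 and 27 of the 36 were lower, number 1 being the pair of like sex. The share of all probe sets that were lower was not computed for single numbers. Of the 36, 18 were lower in each of the 3 numbers, against 4329 of 27022 probe sets (16%). With the block, 13 members were lower at an unadjusted p under 0.05 (36.1% of members against 4.41% of probe sets) and 1 was higher (2.78% against 4.59%), whereas without it 3 had an unadjusted p under 0.05. The 13 include the 6 brightest members, and among probe sets of like brightness 10.0% were lower at that p with the block. The ranges of the genotypes did not overlap for 4 lower members (11.1% against 3.03%) and 1 higher member (2.78% against 2.22%).

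**Figure D1:**
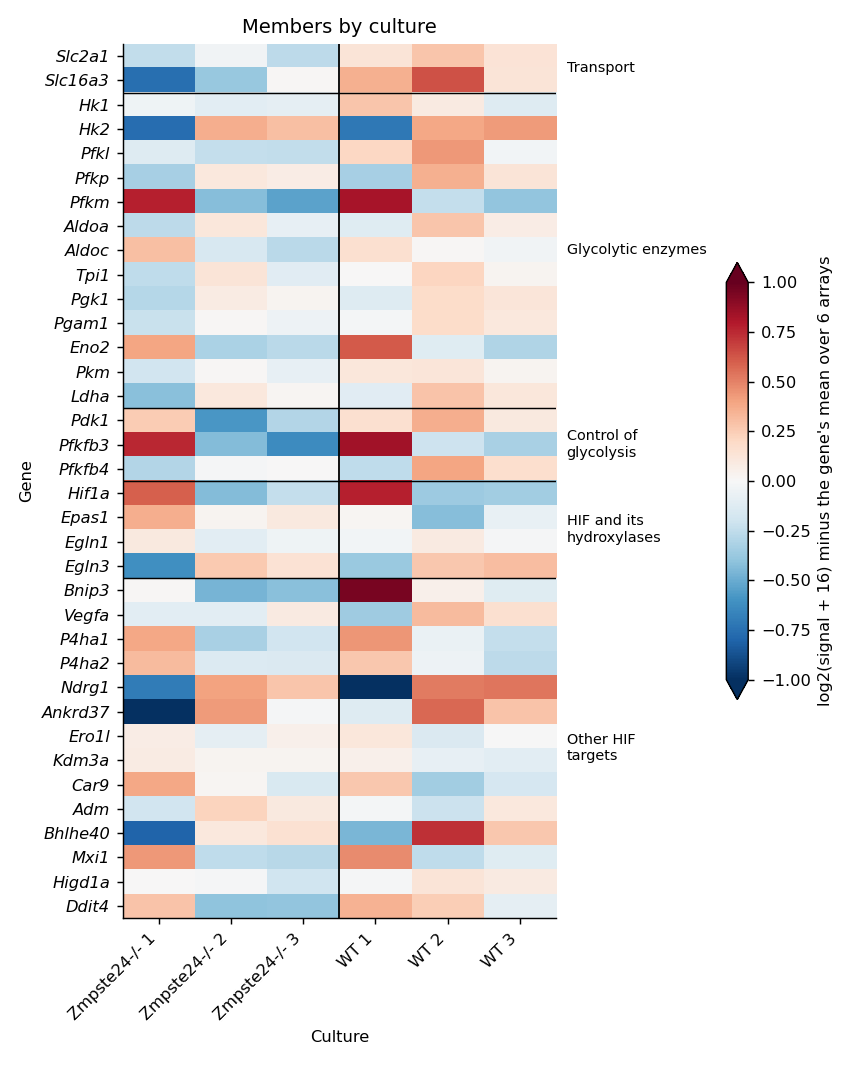
Each cell is 1 culture's log2(signal + 16) minus the gene's mean over the 6 arrays, for the 36 tested members in rows by role, with the 3 Zmpste24-/- cultures left of the line and the 3 WT cultures right of it. Red is above and blue below the gene's mean, and the colours end at 1 and -1. The cultures numbered 1 of both genotypes share most of the strong colours, as for Hk2, Pfkm, Hif1a and Ndrg1, and the genotype differences are paler.

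Both transporter transcripts, for glucose entry and lactate exit, had lower signals in each Zmpste24-/- culture than in any WT culture, and neither passed the test. Slc2a1, which encodes the main glucose transporter of fibroblasts, had a signal of 3127, 3622 and 3083 in Zmpste24-/- cultures 1, 2 and 3, against 4051, 4484 and 4087 in WT cultures 1, 2 and 3. The 3 Zmpste24-/- values all lay below the 3 WT values. The means were 3277 ± 299 in Zmpste24-/- and 4208 ± 240.4 in WT (SD, n = 3 each), and the difference was -0.36 (SE 0.13 without the block and 0.059 with it, adjusted p = 0.216 with it), at -0.37, -0.31 and -0.40 in numbers 1, 2 and 3. Its other probe sets differed by -0.32 and -0.28, again without overlap of the genotypes. Slc2a1 lies on chromosome 4, as Zmpste24 does, with 32 protein-coding genes between them in the RefSeq annotation and no other member among these. Whether its place beside the mutated locus has a part in the difference was not tested.

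Slc16a3, which encodes the lactate exporter of highly glycolytic cells, had 48.9, 68.3 and 94.4 in Zmpste24-/- cultures 1, 2 and 3, against 124, 155 and 104 in WT cultures 1, 2 and 3. The genotypes were separate, although Zmpste24-/- culture 3 came close to WT culture 3. The difference was -0.75 (SE 0.27), from -1.11, -1.02 and -0.12 in numbers 1, 2 and 3. The gene has 1 probe set, and its signals lie not far above the filter of 39.4, so its size depends on the pseudocount, at -0.88 with 1 and -0.52 with 64 in place of 16. It was -0.44 with array weights.

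**Figure D2:**
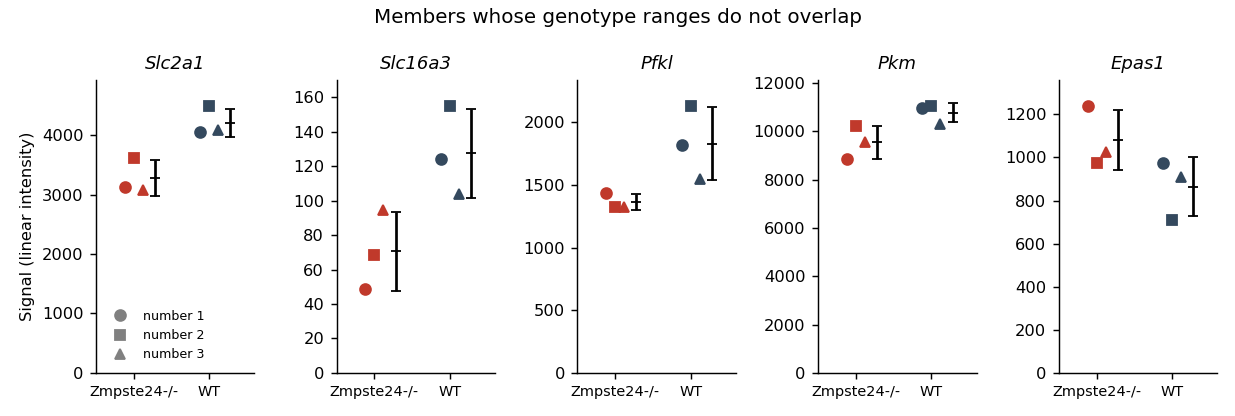
Linear signal of the 5 members whose genotypes do not overlap, with a point per culture (circle, square and triangle for numbers 1, 2 and 3) and the mean with SD (n = 3) beside each group. Zmpste24-/- is left of WT. Slc2a1, Slc16a3, Pfkl and Pkm are lower and Epas1 is higher in the 3 Zmpste24-/- cultures.

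All 13 tested glycolytic enzymes had lower means in Zmpste24-/-, 9 of them in each number, with differences between -0.41 and -0.067. Phosphofructokinase makes the committed step of glycolysis and is a tetramer of liver, muscle and platelet subunits. The liver subunit gene Pfkl had 1438, 1328 and 1326 in Zmpste24-/- cultures 1, 2 and 3, against 1816, 2128 and 1544 in WT cultures 1, 2 and 3. Every Zmpste24-/- value was below every WT value, and WT culture 2 was the highest. The difference was -0.41 (SE 0.17), and a second probe set differed by -0.37, but the dimmest one by 0.029. The muscle subunit gene Pfkm and the platelet subunit gene Pfkp differed by -0.12 and -0.10, with overlapping genotypes.

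Pkm encodes pyruvate kinase, the last enzyme of the pathway, and had 8874, 10227 and 9562 in Zmpste24-/- cultures 1, 2 and 3, against 10985, 11039 and 10327 in WT cultures 1, 2 and 3. The genotypes were separate, with Zmpste24-/- culture 2 just below WT culture 3, and the difference was -0.18 (SE 0.095, with -0.31, -0.11 and -0.11 in numbers 1, 2 and 3). Ldha, the muscle-type lactate dehydrogenase subunit gene, had 9981, 14329 and 13516 in Zmpste24-/- cultures 1, 2 and 3, against 12328, 16233 and 14372 in WT cultures 1, 2 and 3. Each Zmpste24-/- culture lay below the WT culture of its number, and the genotypes overlapped because the number 1 cultures were the lowest of each. Aldolase A, which splits the fructose bisphosphate, is encoded by Aldoa, at 10946, 14170.1 and 12403 in Zmpste24-/- cultures 1, 2 and 3, against 12040.1, 15909 and 13836 in WT cultures 1, 2 and 3, with the same order within numbers. The phosphoglycerate mutase gene Pgam1 had 8915, 10504 and 10038 in Zmpste24-/- cultures 1, 2 and 3, against 10262, 11827 and 11202 in WT cultures 1, 2 and 3. It was lower by 0.20, 0.17 and 0.16 log2 units in numbers 1, 2 and 3, the narrowest spread of any member after Aldoa.

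The other bright enzymes were lower by like amounts. Triose phosphate isomerase (Tpi1) differed by -0.16 and phosphoglycerate kinase (Pgk1) by -0.12, both lower in each number. Within numbers 1, 2 and 3 the difference was -0.14, -0.17 and -0.16 for Aldoa, -0.25, -0.088 and -0.14 for Tpi1. It was -0.16, -0.10 and -0.098 for Pgk1 and -0.30, -0.18 and -0.089 for Ldha. In the fit without a block, leaving out 1 culture leaves its number with 1 genotype. Differences between numbers then enter the genotype difference, so the ranges that follow do not measure dependence on single cultures alone. Leaving out 1 culture, the range was -0.25 to -0.053 for Aldoa (lowest without WT culture 1, highest without WT culture 2) and -0.27 to -0.075 for Tpi1 (lowest without Zmpste24-/- culture 2, highest without Zmpste24-/- culture 1). It was -0.22 to -0.0066 for Pgk1, -0.23 to -0.11 for Pgam1 and -0.29 to -0.031 for Ldha, each lowest without WT culture 1 and highest without Zmpste24-/- culture 1. Their further probe sets gave -0.21 and -0.18 for Tpi1 and -0.16 and -0.22 for Pgk1, and the other 4 of Aldoa ran from -0.17 to -0.25. Several of these probe sets are of the kind that can bind related transcripts, and glycolytic enzymes have many pseudogenes, so copies cannot be told apart there. Gapdh, on its 3 control probe sets, ran from -0.12 to -0.093 and was lower in each number on all 3. Its middle probe set had 15912, 19807 and 18769 in Zmpste24-/- cultures 1, 2 and 3, against 17095, 21348 and 19656 in WT cultures 1, 2 and 3. The ratio of the 3′ to the 5′ Gapdh probe set, a sign of RNA integrity, was 0.753 to 0.772 in all 6 cultures. The same ratio for Actb was 1.36, 1.21 and 1.17 in Zmpste24-/- cultures 1, 2 and 3, against 1.24, 1.22 and 1.21 in WT, so it was highest in the 2 cultures numbered 1, above all in Zmpste24-/- culture 1, and its part in the differences was not tested.

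The 6 brightest members (Aldoa, Tpi1, Pgk1, Pgam1, Pkm and Ldha, with mean signals of 10169 to 13460.0) had a median difference of -0.17. Most very bright probe sets of the array were lower in Zmpste24-/- as well. Of the 549 tested at or above the dimmest of the 6, 81.1% had a mean below WT, with a median of -0.041, and 39.7% were lower in each number. In limma with the block 10.0% of the 549 were lower at an unadjusted p under 0.05, as was each of the 6 enzymes. After quantile normalization, which removes such shifts between arrays, the medians were -0.13 for the 6 enzymes and -0.0014 for the 549 probe sets. Hexokinases, which trap glucose in the cell, differed by -0.16 for Hk1 and -0.067 for Hk2, and the neuronal enolase and brain aldolase genes Eno2 and Aldoc by -0.13 and -0.087. The genotypes overlapped for these 4.

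**Figure D3:**
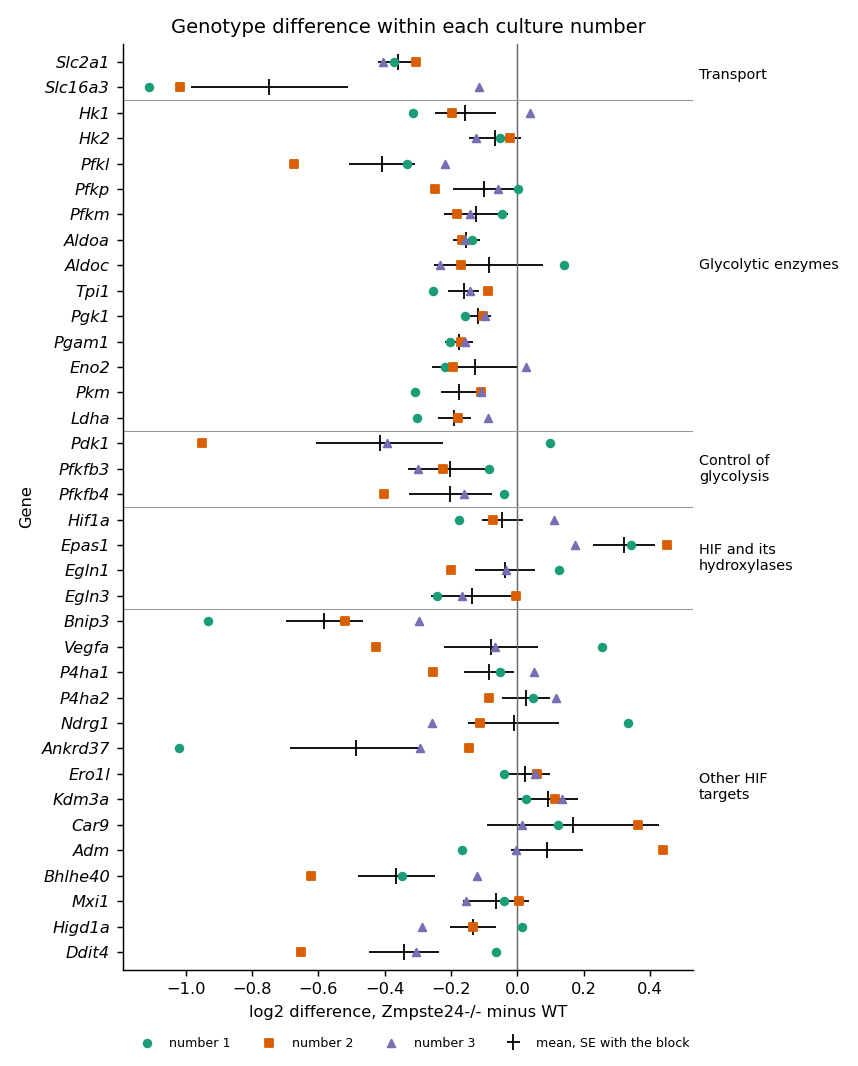
The x axis is the log2 difference, Zmpste24-/- minus WT, for the 36 members by role, with a marker for each culture number (n = 1 pair each). The vertical tick and bar give the mean of the 3 and its SE in the limma fit with the block. The bright enzymes have markers close together left of 0, Slc16a3, Bnip3 and Ankrd37 reach past -0.9 in number 1, and the markers of Vegfa, Ndrg1 and Adm lie on both sides of 0.

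Regulators of the pathway were lower without passing any test. Pdk1 encodes the kinase that shuts pyruvate dehydrogenase and so keeps pyruvate out of mitochondria. It had 344, 185 and 229 in Zmpste24-/- cultures 1, 2 and 3, against 320.0, 372 and 306 in WT cultures 1, 2 and 3. Zmpste24-/- cultures 2 and 3 were the lowest, while Zmpste24-/- culture 1 was above WT culture 1, and the difference of -0.42 (SE 0.25) rests on numbers 2 and 3. Within numbers 1, 2 and 3 it was 0.099, -0.95 and -0.39. In the fit without a block it was -0.65 without Zmpste24-/- culture 1 and -0.23 without Zmpste24-/- culture 2. A second probe set had no overlap of the genotypes (-0.55), and the remaining tested one differed by -0.12. Pfkfb3 and Pfkfb4, whose enzymes make the activator of phosphofructokinase, differed by -0.20 and -0.20 and were lower in each number, with overlap.

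Among the HIF subunits and hydroxylases 1 gene was higher and 3 were lower in Zmpste24-/-. Epas1, which encodes the HIF alpha subunit prominent in endothelium and in long hypoxia, had 1237, 976 and 1026 in Zmpste24-/- cultures 1, 2 and 3, against 973, 709 and 908 in WT cultures 1, 2 and 3. All 3 Zmpste24-/- values were above the 3 WT values, though Zmpste24-/- culture 2 lay just above WT culture 1. The means were 1079.7 ± 139 in Zmpste24-/- and 864 ± 138 in WT (SD, n = 3 each). The difference was 0.32 (SE 0.19 without the block and 0.094 with it, adjusted p = 0.431 with it), at 0.34, 0.45 and 0.17 in numbers 1, 2 and 3. It was 0.19 without WT culture 2 in the fit without a block. The 8 markers of endothelial cells, in which Epas1 is high, summed to 887, 725 and 769 in Zmpste24-/- cultures 1, 2 and 3, against 598, 682 and 647 in WT. Most of that sum was Emcn and Kdr, while Pecam1 was at most 4.62 in Zmpste24-/- and 18.1 in WT, and the part of such cells in the Epas1 difference was not tested. A dim second Epas1 probe set, with a mean of 77.1, differed by 0.034. Hif1a had 12639, 6177 and 7091 in Zmpste24-/- cultures 1, 2 and 3, against 14283, 6501 and 6564 in WT cultures 1, 2 and 3. Its genotypes overlapped (difference -0.046), and the 2 cultures numbered 1 were far above the other 4. Of the prolyl hydroxylases, Egln1 differed by -0.037 on its brightest and -0.35 on its other probe set, and Egln3 by -0.14.

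Among the other 14 tested HIF targets 9 were lower and 5 higher in Zmpste24-/-, with a median of -0.072. Bnip3, a mitophagy receptor of the outer mitochondrial membrane, had 1968, 1406 and 1452 in Zmpste24-/- cultures 1, 2 and 3, against 3771, 2022 and 1789 in WT cultures 1, 2 and 3. WT culture 1 was far above the rest, and each Zmpste24-/- culture was below the WT culture of its number. The difference was -0.58 (SE 0.31, and 0.12 with the block, adjusted p = 0.27), at -0.93, -0.52 and -0.30 in numbers 1, 2 and 3 and smallest in number 3. Without WT culture 1 it was -0.26 in the fit without a block, where Zmpste24-/- culture 1 stayed in.

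A further 3 targets were lower in each number. Ankrd37, an ankyrin repeat gene induced by HIF, had 58.3, 206 and 147 in Zmpste24-/- cultures 1, 2 and 3, against 135, 229 and 184 in WT cultures 1, 2 and 3. The value of Zmpste24-/- culture 1 stood apart. Within numbers 1, 2 and 3 the difference was -1.02, -0.15 and -0.29, with a mean of -0.49. In the fit without a block it was -0.035 without Zmpste24-/- culture 1, where WT culture 1, the lowest of the WT cultures, stayed in. Ddit4, which encodes an inhibitor of mTOR signalling, had 3609, 2232 and 2249 in Zmpste24-/- cultures 1, 2 and 3, against 3773, 3518 and 2785 in WT cultures 1, 2 and 3. Zmpste24-/- cultures 2 and 3 were the lowest and WT culture 1 was the highest. The difference of -0.34 came from -0.064, -0.65 and -0.31 in numbers 1, 2 and 3. In the fit without a block it was -0.57 without Zmpste24-/- culture 1 and -0.22 without Zmpste24-/- culture 2. Bhlhe40, a transcriptional repressor of the circadian clock and of differentiation, had 444, 847 and 874 in Zmpste24-/- cultures 1, 2 and 3, against 569.9, 1313 and 953 in WT cultures 1, 2 and 3, a difference of -0.36 that was widest in number 2. Within numbers 1, 2 and 3 it was -0.35, -0.62 and -0.12. In the fit without a block it was -0.055 without Zmpste24-/- culture 1, -0.092 without WT culture 2 and -0.68 without WT culture 1. There the other culture of the number stayed in.

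The remaining targets differed little between genotypes. Those lower were the inner mitochondrial membrane gene Higd1a (-0.14), the collagen prolyl hydroxylase gene P4ha1 (-0.085), the angiogenic factor gene Vegfa (-0.080), the MAX partner gene Mxi1 (-0.064) and the stress-response gene Ndrg1 (-0.012). Those higher were the carbonic anhydrase gene Car9 (0.17), the histone demethylase gene Kdm3a (0.091), the vasodilator peptide gene Adm (0.089), P4ha2 (0.025) and the endoplasmic reticulum oxidase gene Ero1l (0.024). Kdm3a was higher in each number, at 778, 749.7 and 749.5 in Zmpste24-/- and 763, 693 and 681 in WT, and its genotypes overlapped. Car9, a gene that many cells hold near zero in air, had a signal of 29.0 to 59.0 on all 6 arrays, close to the filter. The sign of Ndrg1 turned with median centring, to 0.0033.

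By culture number the members differed far more than by genotype, and in both directions. The hexokinase gene Hk2, the lactate dehydrogenase gene Ldha and the HIF targets Ndrg1, Ankrd37, Bhlhe40 and Egln3 were lower in the 2 cultures numbered 1, whereas Hif1a, Bnip3, Pfkm, Pfkfb3, P4ha1 and Ddit4 were higher there. The test was limma's F-test over the number, with genotype as a term, and each number has 2 cultures. By the sex transcripts WT culture 1 was female and WT cultures 2 and 3 male. In WT, sex therefore differs along with number 1 against the others, and its part was not tested. It called 20 of 36 members (55.6%), and 41.6% of all probe sets. Number 1 lay above both other numbers for 9 members (25.0%), against 19.1% of probe sets, and below both for 9 (25.0%), against 17.2%. Between numbers 2 and 3 no member was called, as for all but 0.00740% of probe sets, and the smallest adjusted p was 0.684. The members' shares lie close to those of the whole table.

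The mitosis genes and the macrophage markers moved with the same cultures. All 14 measured mitosis genes were called lower in number 1 against both others, with medians of -2.26 and -2.22. Of 13 tested macrophage markers 12 were called higher, with medians of 2.26 and 1.94. C1qa, a macrophage complement gene, had 1008, 3.40 and 3.18 in Zmpste24-/- cultures 1, 2 and 3, against 380.0, 9.02 and 8.67 in WT cultures 1, 2 and 3. Krt19 had 49.7, 2514 and 2038 in Zmpste24-/- cultures 1, 2 and 3, against 83.8, 2026 and 1723 in WT cultures 1, 2 and 3, and the fibroblast matrix gene Lum 7892, 292 and 483 in Zmpste24-/- cultures 1, 2 and 3, against 6548, 681 and 577 in WT cultures 1, 2 and 3. Lum did not stand for the 12 fibroblast markers, whose medians were 0.065 against number 2 and 0.14 against number 3. Of these, 5 were called higher and 3 lower against number 2, and 6 higher and 1 lower against number 3. The part of any of the genes in this paragraph in the differences below was not tested. In whole cultures fewer cells of a type and less RNA per cell cannot be told apart.

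Among the 13 enzymes, 5 were lower in number 1 than in both others, beside 17.2% of all probe sets, and 2 were higher, beside 19.1%. Hk2, the inducible hexokinase, had 804 and 835 in the number 1 cultures (Zmpste24-/- and WT), 1781 and 1809 in number 2, and 1697 and 1854 in number 3. Both number 1 cultures were below every other culture, with a difference of -1.12 (SE 0.096) against number 2 and -1.10 against number 3, with adjusted p of 7.08e-05 and 8.38e-05. The constitutive Hk1 differed by 0.13 and 0.23 and was not called. Ldha had 9981 and 12328 in the number 1 cultures (Zmpste24-/- and WT), 14329 and 16233 in number 2, and 13516 and 14372 in number 3, a difference of -0.46 (SE 0.061) against number 2 and -0.33 against number 3, with adjusted p of 5.99e-04 and 0.00343. Aldoa, Pgk1 and Pfkp were also lower, by 0.39, 0.34 and 0.57 against number 2 and by 0.19, 0.28 and 0.44 against number 3. For Aldoa the contrast with number 3 was lost after quantile normalization (adjusted p = 0.0962), by centring arrays on their medians (0.075), and without any 1 of the 4 cultures numbered 1 and 3 (0.0642 to 0.104). That of Pfkp was lost without WT culture 1 (0.105), WT culture 3 (0.0797) or Zmpste24-/- culture 3 (0.117). With no intensity trend in limma, Pgk1 (0.0707 and 0.113) and Aldoa (0.0524 and 0.233) lost their calls against numbers 2 and 3. Under that setting Ldha (0.101) and Pfkp (0.0595) lost theirs against number 3. Tpi1 and Pgam1 were lower than in number 2 only, at -0.30 and -0.22.

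The phosphofructokinase subunits moved apart. Pfkm had 1052 and 1088 in the number 1 cultures (Zmpste24-/- and WT), 449 and 512 in number 2, and 415 and 461 in number 3, a difference of 1.13 (SE 0.12) against number 2 and 1.26 against number 3, with adjusted p of 1.86e-04 and 1.25e-04. In the same cultures Pfkp was lower, and Pfkl, at -0.057 and 0.17, was not called. Eno2 was higher in number 1, by 0.72 and 0.79, and lost its call against number 2 without WT culture 1 (adjusted p = 0.0511) and against number 3 without WT culture 3 (0.064). Pfkfb3 had 429.9 and 457 in the number 1 cultures (Zmpste24-/- and WT), 180.1 and 213 in number 2, and 155 and 195 in number 3, a difference of 1.12 (SE 0.15) against number 2 and 1.27 against number 3, with adjusted p of 7.11e-04 and 3.96e-04. Pfkfb4, its close relative, was lower than in number 2 (-0.47, adjusted p = 0.0401) and was not called against number 3. Slc2a1, Slc16a3 and Pkm, which separated the genotypes, were not called by number on their brightest probe sets.

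**Figure D4:**
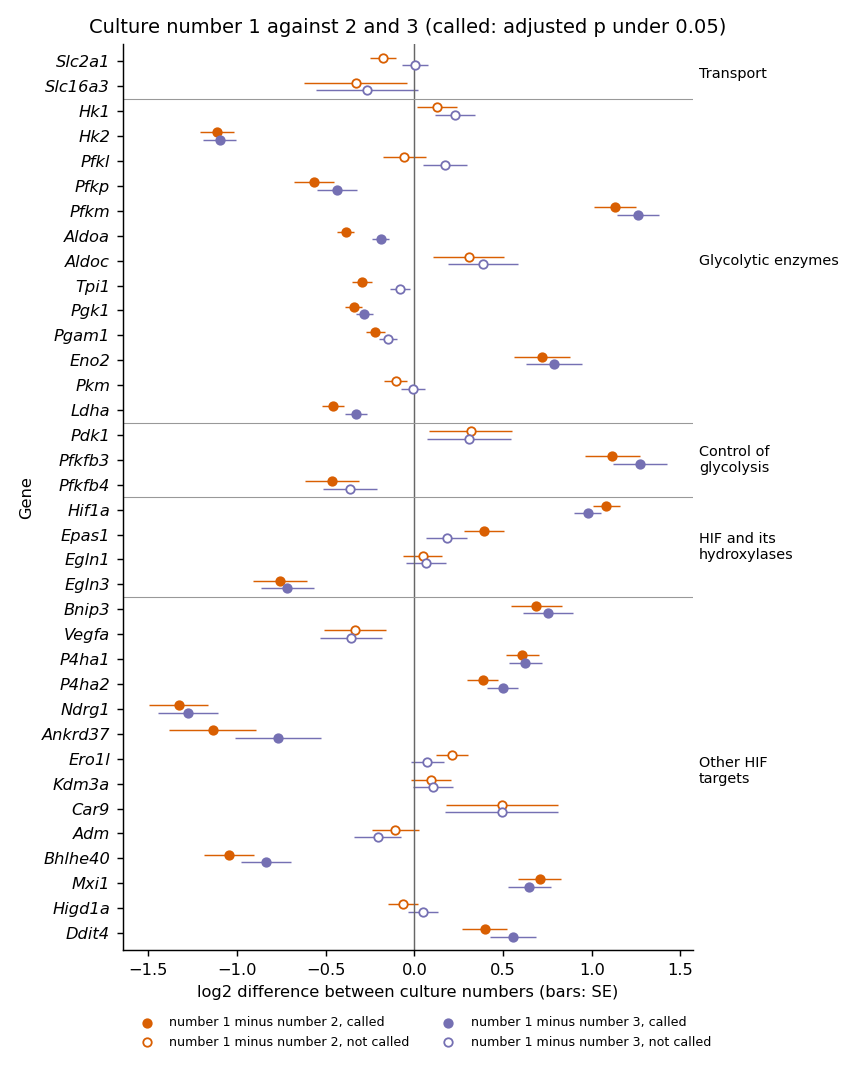
The x axis is the log2 difference of number 1 from number 2 (orange) and from number 3 (violet) for the 36 members by role, each from 2 cultures a number with genotype as a term, with bars for the SE. Filled points passed an adjusted p under 0.05 across all probe sets and open points did not. Hk2, Ndrg1, Ankrd37, Bhlhe40 and Egln3 lie left of 0 and Pfkm, Pfkfb3, Hif1a, Bnip3, Mxi1 and P4ha1 right of it in both contrasts.

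HIF targets split as well. Hif1a had 12639 and 14283 in the number 1 cultures (Zmpste24-/- and WT), 6177 and 6501 in number 2, and 7091 and 6564 in number 3, a difference of 1.08 (SE 0.076) against number 2 and 0.98 against number 3, with adjusted p of 3.05e-05 and 5.01e-05, and its other tested probe sets were higher in number 1 by 1.23 and 1.98 against number 2. Bnip3, P4ha1, P4ha2, Mxi1 and Ddit4 were higher too, by 0.69, 0.61, 0.39, 0.71 and 0.40 against number 2 and by 0.75, 0.63, 0.50, 0.65 and 0.56 against number 3. Bnip3 was carried there by WT culture 1 (3771) more than by Zmpste24-/- culture 1 (1968). Against them stood 3 targets that were lower. Of the 14 tested targets, 5 were above both other numbers, beside 19.1% of all probe sets, and 3 were below both, beside 17.2%. Ndrg1, which many stresses induce, had 257 and 201 in the number 1 cultures (Zmpste24-/- and WT), 573 and 621 in number 2, and 524 and 629.7 in number 3, a difference of -1.33 (SE 0.17) against number 2 and -1.28 against number 3, with adjusted p of 4.52e-04 and 5.96e-04. Bhlhe40 had 444 and 569.9 in the number 1 cultures (Zmpste24-/- and WT), 847 and 1313 in number 2, and 874 and 953 in number 3, a difference of -1.04 (SE 0.14) against number 2 and -0.84 against number 3, with adjusted p of 6.24e-04 and 0.00203. Ankrd37 was lower by 1.14 and 0.77, and these calls rest on single cultures. The first was lost without Zmpste24-/- culture 2 (adjusted p = 0.0681) and the second without Zmpste24-/- culture 1 (0.308), Zmpste24-/- culture 3 (0.227) or WT culture 3 (0.0917). Ddit4 lost its call against number 2 without Zmpste24-/- culture 1 (0.323) or 2 (0.334), where its difference was 0.19 and 0.16, and it lost its call against number 2 or 3 without Zmpste24-/- culture 3, WT culture 3 or, for number 3, Zmpste24-/- culture 1 (0.0522 to 0.0692). P4ha2 lost its call against number 2 without Zmpste24-/- culture 2 (0.0739). Median centring also removed the calls of P4ha2 (0.153) and Ddit4 (0.166) against number 2. Bnip3 lost its calls against numbers 2 and 3 with genotype left out of the model (0.0739 and 0.0567). With no intensity trend in limma, Bnip3 (0.0538), P4ha2 (0.0667) and Ddit4 (0.155) were not called against number 2.

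Egln3, a hydroxylase that is itself a HIF target, had 179 and 214 in the number 1 cultures (Zmpste24-/- and WT), 341 and 343 in number 2, and 313 and 353 in number 3, a difference of -0.76 (SE 0.15) against number 2 and -0.72 against number 3, with adjusted p of 0.0042 and 0.00587. It was no longer called against number 3 without WT culture 3 (adjusted p = 0.0598). Its dimmer probe set was not called, at 0.23 and 0.17. Probe sets of the same gene disagreed by number elsewhere too. Egln1 was at 0.046 and 0.065 on its brightest probe set and at -1.28 and -0.98, called, on the other. Higd1a differed by -0.063 on the brightest and by 1.46 and 1.43 on the others, and Ero1l by 0.21 against 0.72 and 1.08. A dimmer Pdk1 probe set was higher by 1.63, while the brightest, at 0.32, was not called. The probe sets of these genes therefore did not measure alike. Epas1 was higher than in number 2 (0.39, adjusted p = 0.0248) and not called against number 3 (0.18). Vegfa, Adm, Kdm3a, Car9 and Egln1 were not called by number on their brightest probe sets, with Vegfa at -0.34 and -0.36.

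Further genes of the same pathways, from lists drawn up with earlier results known, gave 0 calls for genotype with or without the block. Of 32 tested genes around glycolysis and pyruvate use, 16 were lower and 16 higher, with a median of -0.0011. Eno3, the muscle enolase gene, and Pgm1, which feeds glucose phosphate from glycogen, were lower in each number, at -0.21 and -0.23. Dld, a subunit gene of pyruvate dehydrogenase, was at 0.16, and the glucose transporter gene Slc2a3 at -0.31. In the pentose phosphate branch 5 of 7 were lower (median -0.075), with Tkt at -0.16, Pgd at -0.12, Pgls at -0.10 and Rpe at 0.12.

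Of 24 tested regulators of HIF, 11 were lower (median 0.0070). Hif3a, a gene of a further alpha subunit, had 267, 252 and 236 in Zmpste24-/- and 319.8, 308 and 405 in WT, without overlap and at -0.42. The ubiquitin ligase gene Siah2, the repressor gene Zbtb7a and the HIF antagonist gene Cited2 differed by -0.42, -0.50 and 0.21, with overlap. Of 50 further HIF targets tested, 35 were lower, against 51.1% of all probe sets, with a median of -0.039, and 13 were lower in each number. Ak4, a mitochondrial adenylate kinase, had 359, 358 and 339.7 in Zmpste24-/- and 506, 572 and 467 in WT. Its genotypes were separate, and the difference was -0.52. Fam162a and the cytokine gene Mif were at -0.19 and -0.15, and the chemokine gene Cxcl12 at 0.19. By culture number 29 of these 50 were called, beside 41.6% of all probe sets. Number 1 was above both others for 15 of them, beside 19.1% of probe sets, and below both for 12, beside 17.2%.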

How the data were processed

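The data are a table of 45101 probe sets from Affymetrix Mouse Genome 430 2.0 arrays, 1 array for each of 6 cultures. The values are linear intensity, made by the authors with GCOS per the submitters' processing notes, whose version and settings the sources used here do not give. Each array has a mean of 500 after 2% is trimmed from each end, so a change in total RNA per cell cannot be seen. The number of arrays, 3 per genotype, limits the precision. From the deposited intensity, log2(value + 16) was taken, 64 control probe sets and the dimmest 40% (mean below 39.4) were left out, and 27022 probe sets were tested in limma 3.58.1 (R 4.3.3) with an intensity trend and Benjamini-Hochberg adjustment over all of them, at 0.05. The genotype fit had no block. The number fit had genotype as a term. Fits were run on data simulated with noise drawn from limma's own fitted variances. Such data meet the assumptions of the fits and do not test them. Names came from the platform annotation, in which 34945 probe sets have 1 symbol, 932 several and 9160 are not listed, updated through RefSeq (GRCm38.p6), and promoters from RefSeq. Titles give cultures of both genotypes the numbers 1 to 3, and the protocol mentions pairs. For cultures sharing a number, deviations from their genotype's mean had correlations of 0.829, 0.588 and 0.574 for numbers 1, 2 and 3. These were above 0.1, so same-numbered cultures were treated as paired and the block is given beside results. Cultures of unlike number reached 0.551 (Zmpste24-/- 2 with WT 3) and 0.487 (Zmpste24-/- 3 with WT 2). The correlations therefore set number 1 apart but do not show that numbers 2 and 3 are matched as labelled. Members, lists and the rule for named genes were chosen with earlier results of these data known: all members, and in each further list the 4 genes with the smallest p with the block. Alternatives were other pseudocounts, filters, scalings, weights, probe sets and left-out cultures. Figures were drawn with matplotlib 3.10.9.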

Additional observations from a re-analysis of the deposited data

How the results depend on the processing

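No member was called for genotype in any alternative tried, 1 of them (numbers 2 and 3 with the probe sets of the full table) chosen after seeing the data. Over all probe sets the fit without a block called 1 with array weights, 21 with cultures 2 and 3 only, 20 with those cultures and the probe sets of the full table, and 0 to 4 with 1 culture left out. The fit with the replicate block called 5, and 104, 1 and 3 without numbers 1, 2 and 3, so on the same 4 arrays (cultures 2 and 3) the count was 104 with the block and 21 without it. The members' median ran from -0.17 to -0.094 over the settings and from -0.21 to -0.10 with a culture or number left out (-0.21 without WT culture 1). The count of lower members was 19 of 28 without probe sets of the _x_at, _s_at and _a_at kinds, and 24 to 30 with a culture or number left out. By culture number, members called by the F-test were 10 with no intensity trend, those called between numbers 1 and 2 were 13 and those below both others 4. With a culture left out the counts were 16 to 20 by the F-test, 19 to 21 and 12 to 18 for number 1 against 2 and 3, 0 to 0 for number 2 against 3, 7 to 9 above both others and 5 to 9 below both, the 5 without WT culture 3. All 642 recomputed number contrasts of members called against both kept their direction, and 47 were no longer called. Of 493 genotype values of members under other settings 483 kept their direction. Those that turned were of 5 genes. Hif1a was 0.065 with array weights and 0.019 with cultures 2 and 3 only on either set of probe sets. Ndrg1 was 0.0033 with median centring and 0.045 with the mean over probe sets. Ero1l was -0.040 and Mxi1 0.025 with that mean. Without _x_at, _s_at and _a_at probe sets Hif1a was 0.024, Ndrg1 0.18 and Pfkl 0.029. For Pfkl this left its dimmest probe set, with a mean signal of 69.8. With a culture or number left out 285 of 323 kept their direction, and with 1 culture left out the ranges of those that turned were -1.52e-05 to 0.21 for Adm, -0.26 to 0.027 for Aldoc, -0.096 to 0.0084 for Egln1, -0.36 to 0.13 for Egln3, -0.36 to 0.15 for Eno2, -0.043 to 0.087 for Ero1l, -0.36 to 0.33 for Hif1a, -0.44 to 0.30 for Hk2, -0.30 to 0.16 for Mxi1, -0.53 to 0.34 for Ndrg1, -0.30 to 0.11 for P4ha1, -0.13 to 0.17 for P4ha2, -0.63 to 0.17 for Pfkfb3, -0.54 to 0.25 for Pfkm, -0.29 to 0.051 for Pfkp, -0.28 to 0.059 for Vegfa. With a whole number left out and the replicate block kept, the values that turned were without replicate 1 Hif1a (0.019); without replicate 2 Adm (-0.086), Egln1 (0.045), Ndrg1 (0.039), Vegfa (0.094); without replicate 3 Ndrg1 (0.11), P4ha2 (-0.020). The fits with 1 culture left out had no block, so its number kept 1 genotype and differences between numbers enter those ranges. Of the genes that turned there, Hk2, Pfkm, Pfkfb3 and Egln3 were lower in each number, and the rest were not. These 4 did not turn with a whole number left out and the block kept. The cause of these changes was not tested.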

Other observations

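Probe sets other than the brightest gave 32 further tested values for the members, from 21 genes with several probe sets, and 23 of them had the sign of the brightest one for genotype. The 9 of the other sign belong to Hif1a, Ndrg1, Ero1l, Mxi1, Higd1a and Pfkl. In the pentose phosphate branch, 6 of 7 tested genes were called by culture number, where 41.6% of all probe sets were. Tkt, which encodes transketolase, had 6279, 13946 and 12834 in Zmpste24-/- cultures 1, 2 and 3, against 8282, 14454 and 13089 in WT cultures 1, 2 and 3. The number 1 cultures were the lowest in both genotypes, by 0.98 and 0.84 against numbers 2 and 3. Pgls, a lactonase of the same branch, was higher there, by 0.41 and 0.65. Cxcl12, a chemokine gene that HIF can induce, had 15988, 8388 and 9533 in Zmpste24-/- cultures 1, 2 and 3, against 13381, 8103 and 7876 in WT cultures 1, 2 and 3, and was higher in number 1 by 0.83 and 0.75.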
